A study of Mus musculus with 20 samples.

Results

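The genes described here belong to the program that turns a blood-forming precursor into a red cell. Gata1 and Klf1 encode the transcription factors that switch on most red cell genes, and Epor encodes the receptor for erythropoietin, the hormone that keeps red cell precursors alive. Slc4a1 (band 3, the chloride-bicarbonate exchanger), Ank1 (ankyrin 1), Epb42 (protein 4.2) and Rhag (the Rh-associated glycoprotein) encode parts of the red cell membrane. Ahsp encodes the chaperone of free alpha globin. Every probe set that the array's annotation gives to exactly 1 of these genes was taken. They came to 13 probe sets of 7 of the 8 genes, out of 45037 probe sets tested and 18193 genes with a probe set of their own. There were 3 for Slc4a1, 4 for Ank1, 2 for Epb42 and 1 each for Gata1, Klf1, Epor and Rhag. Ahsp was not analysed here, because the annotation used gives it no probe set.

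Iron regulatory protein 1 (IRP1) is an RNA-binding protein that holds the iron-responsive element (IRE), a stem-loop in mRNAs of iron metabolism. The study asked which mRNAs are held by IRP1 in mouse tissues. Total RNA of C57BL6/J mice of both sexes was pooled within each tissue, mixed with purified recombinant His-tagged IRP1 and precipitated with a rabbit polyclonal antibody against IRP1. The recovered RNA was hybridised to Affymetrix Mouse Genome 430 2.0 arrays. In the control reaction the recombinant protein was left out. Each of 5 tissues had 2 IRP1 and 2 control arrays, which makes 20 arrays in 10 groups. Bone marrow and brain came from mice of 8 to 10 weeks on a diet with normal iron, and each pool was drawn from 6 mice. Spleen, liver and duodenum came from mice fed after weaning, for 21 days, on food with less than 10 mg iron per kg. The labels give 4 mice for 1 duodenum pool and no number for the others. Tissue therefore goes together with age and diet, and bone marrow differs from spleen in all of these. Each reaction took 50 µg of total RNA, and 120 ng of recovered RNA went to the array.

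A red cell precursor makes hemoglobin in large amounts and so takes up more iron than any other cell. In the mouse this happens in the bone marrow and, throughout adult life, also in the spleen, which expands its output when iron is short or red cells are lost. Iron limits the process through IRP1 and its relative IRP2: they bind an IRE in the mRNA of Alas2, the enzyme that starts heme synthesis in red cell precursors, and several IREs in the mRNA of Tfrc, the transferrin receptor. The 8 erythroid genes are not known as carriers of an IRE, so they serve as abundant red cell mRNAs beside Alas2 and Tfrc.

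The promoters of 5 of the 8 genes were in the table of RefSeq start-site windows used here (GRCm38.p6, 250 bases before to 50 bases after the start). They are shown because Gata1 and Klf1 encode the proteins that bind the motifs in capitals. The motifs searched on both strands were AGATAA and TGATAA, the GATA motif, which reads TTATCT or TTATCA on the other strand, and CACACCC, the box bound by Klf1. The stretches run 5′ to 3′ on the gene's strand, at chrX:7967940-7968026 (minus), chr8:84901826-84901947 (plus), chr9:21963585-21963670 (minus), chr2:121037058-121037127 (minus) and chr17:40811078-40811148 (plus).
Gata1: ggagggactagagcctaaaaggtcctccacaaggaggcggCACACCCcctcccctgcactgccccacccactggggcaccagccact
Klf1: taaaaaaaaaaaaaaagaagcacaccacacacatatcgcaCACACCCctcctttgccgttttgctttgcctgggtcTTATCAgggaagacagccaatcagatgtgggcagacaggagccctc
Epor: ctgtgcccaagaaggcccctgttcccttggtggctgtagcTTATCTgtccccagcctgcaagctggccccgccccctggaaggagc
Epb42: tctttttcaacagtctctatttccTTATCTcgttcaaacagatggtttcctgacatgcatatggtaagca
Rhag: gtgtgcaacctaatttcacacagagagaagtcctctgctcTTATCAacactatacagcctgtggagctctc

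A GATA motif lay in 4 of these 5 windows, those of Klf1, Epor, Epb42 and Rhag, and in 18.6% of all 32851 windows of the same length. The CACC box lay in the windows of Gata1 and Klf1 and in 7.95% of all windows. Klf1 had both, as did 1.27% of all windows. Counted to the motif's first base on the gene's strand, the GATA motif stood at -80 in Klf1, -54 in Epor, -226 in Epb42 and -31 in Rhag. The CACC box stood at -76 in Gata1 and -116 in Klf1. The Gata1 window lies inside the span annotated to the gene, and so does most of the Rhag stretch. These matches describe letters and are no evidence of binding.

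Depth in the sense of read counts does not apply to arrays, and their number, 2 a group, limits the precision. The deposited values are log2 signals per probe set, and arrays of 1 group correlated at 0.983 to 0.992 (Pearson r across probe sets). The hybridisation controls were dim on spleen IRP1 replicate 2, spleen control replicate 2 and bone marrow control replicate 1, at -1.06, -1.26 and -0.74 against the median array. The member counts of the bone marrow and spleen comparisons and some member differences are also given without these arrays. The lists of other genes and most IRP1 effects are given with all arrays only. The mean log2 level of hepatocyte markers was 12.73 to 13.60 on liver arrays, that of enterocyte markers 13.00 to 13.43 on duodenum arrays and that of neuron markers 10.52 to 11.32 on brain arrays. Bone marrow had neutrophil precursor markers at 13.19 to 13.63, and spleen had B and T cell markers at 9.46 to 9.57. Pancreatic acinar markers also read 9.28 to 10.65 in spleen and 12.76 to 14.35 in duodenum. Values near the array floor of about 2.63 to 2.89 and near its ceiling of 15.14 to 15.35 compress fold changes.

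The erythroid genes marked bone marrow first and spleen second. In control arrays, 11 of the 13 probe sets were higher in bone marrow than in the mean of liver, duodenum and brain, where 17.6% of all probe sets were called higher. In spleen 9 of 13 were higher than in those organs, against 21.4% of all probe sets. The median difference of the 13 was 2.56 for bone marrow and 0.93 for spleen on the log2 scale, while the medians over all probe sets were -0.01 and -0.07. The same 3 organs stand on the other side of both comparisons, so these are not independent. None of the 13 was called lower in either, and the share of all probe sets called lower was not counted. Without the 3 arrays with dim hybridisation controls the counts were 10 in bone marrow and 8 in spleen. All differences were tested with limma over all probe sets with Benjamini-Hochberg adjustment, and a call needs an adjusted p under 0.05. Because each tissue's RNA was a pool, the p-values cover variation of reactions and arrays, and variation between animals does not enter. The control arrays hold RNA that was recovered without IRP1, and fewer cells of a type cannot be told apart from less RNA per cell.

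**Figure D1:**
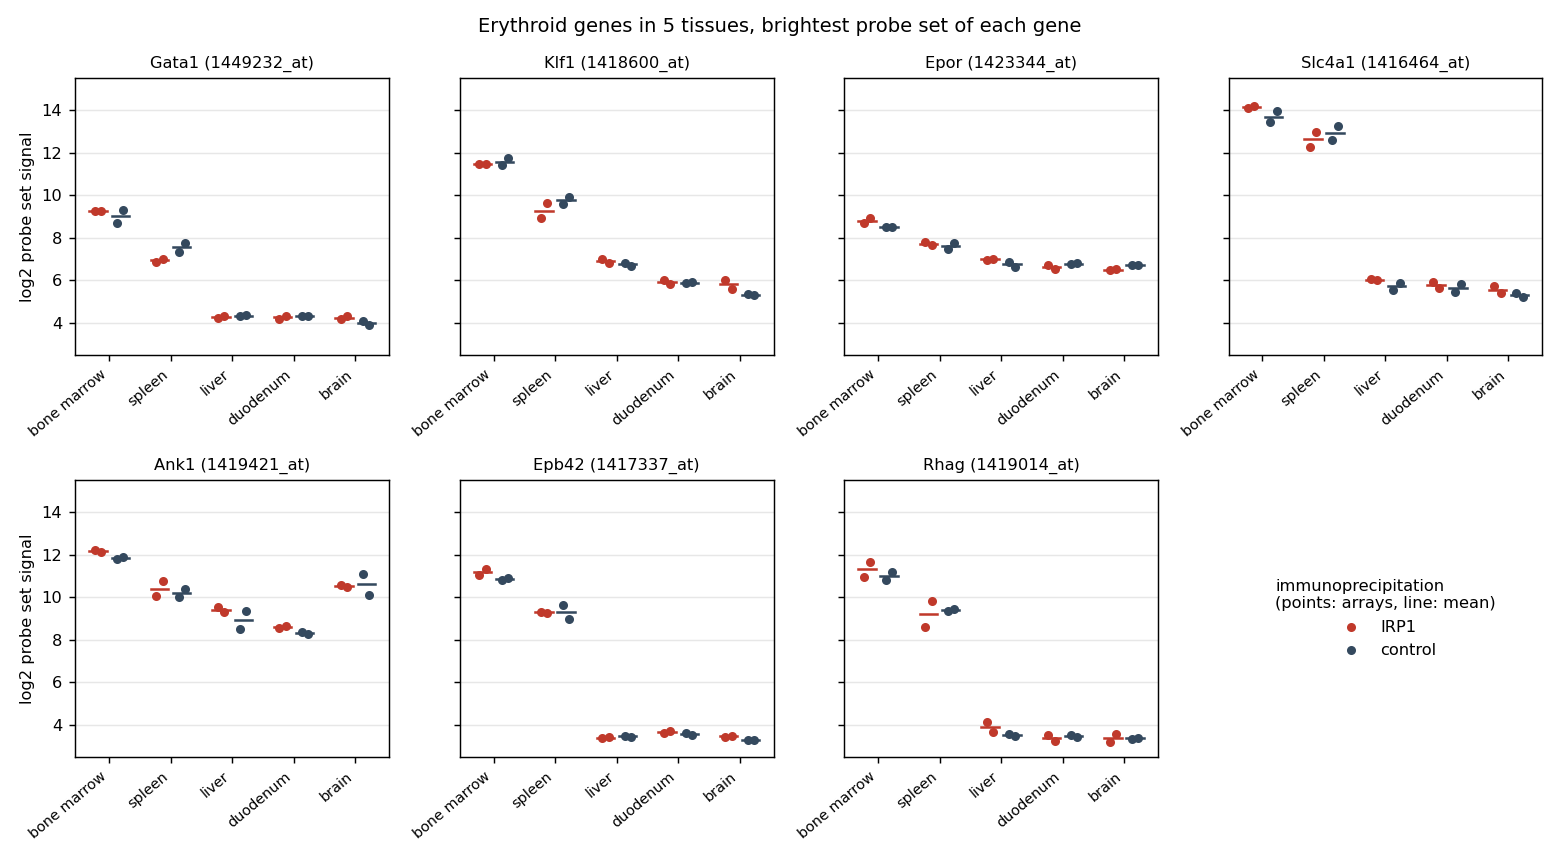
Log2 signal of the brightest probe set of each gene on every array. Tissues run along the axis, points are arrays, short lines are means of 2 arrays, and IRP1 reactions stand left of their controls. Bone marrow is highest and spleen second for every gene except Ank1, whose brain arrays overlap the spleen arrays. IRP1 and control points stay close together.

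Gata1 (chrX:7959260-7976663), the master regulator of the red cell and megakaryocyte lineages, was measured by probe set 1449232_at. In bone marrow it read 9.29 and 9.26 on the IRP1 arrays and 8.71 and 9.32 on the controls. In spleen it read 6.85 and 7.03 with IRP1 and 7.34 and 7.77 in controls. The other 3 organs lay between 3.92 and 4.37 on all their 12 arrays, so neither blood-forming tissue overlapped them. Among controls, Gata1 was 27.7-fold higher in bone marrow than in those organs (log2 4.79 ± 0.16, SE, adjusted p = 7.76e-13). In spleen it was 10.1-fold higher (log2 3.33 ± 0.16, SE, adjusted p = 5.48e-11).

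Klf1 (chr8:84901982-84905291) encodes the CACC-box factor that drives adult beta globin, and was measured by 1418600_at. Bone marrow read 11.46 and 11.46 with IRP1 and 11.41 and 11.75 in controls. Spleen read 8.93 and 9.65 with IRP1 and 9.62 and 9.95 in controls. All 12 arrays of the other organs were lower, at 5.30 to 7.03. The difference between control arrays was 48.0-fold for bone marrow (log2 5.59 ± 0.18, SE, adjusted p = 5.67e-13) and 13.8-fold for spleen (log2 3.79 ± 0.18, SE, adjusted p = 5.26e-11).

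The signal of Epor (chr9:21958897-21963576) differed less between tissues than the signals of Gata1 and Klf1, though folds of different probe sets need not rank the genes. Its probe set 1423344_at read 8.71 and 8.92 with IRP1 and 8.49 and 8.50 in controls of bone marrow. Spleen read 7.79 and 7.69 with IRP1 and 7.50 and 7.76 in controls, and the other organs 6.49 to 7.02. It thus had signal in the middle of the array's range in every organ, and the groups did not overlap. Bone marrow controls were 3.34-fold higher than the other organs (log2 1.74 ± 0.12, SE, adjusted p = 4.84e-09), and spleen controls 1.83-fold higher (log2 0.87 ± 0.12, SE, adjusted p = 1.85e-05).

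Slc4a1 (chr11:102348820-102365281) encodes the most abundant protein of the red cell membrane. Probe set 1416464_at read 14.13 and 14.19 with IRP1 and 13.44 and 13.98 in controls of bone marrow. In spleen it read 12.27 and 12.99 with IRP1 and 12.59 and 13.25 in controls, and on the other organs' arrays 5.20 to 6.05. Bone marrow controls were 285-fold and spleen controls 165-fold above the other organs (adjusted p = 7.5e-14 and 5.84e-13). Probe set 1434502_x_at gave 485-fold and 332-fold (adjusted p = 1.3e-15 and 1.43e-14), with 12.65 and 13.14 in bone marrow controls and 12.23 and 12.46 in spleen controls. Probe sets with the ending x_at can also pick up related sequences. The third probe set, 1431743_a_at, lay near the array floor everywhere, at 3.69 to 4.43. It was not called in either tissue (log2 0.14 ± 0.15 and -0.11 ± 0.15, SE, adjusted p = 0.527 and 0.617).

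Epb42 (chr2:121017891-121036877) encodes protein 4.2, which ties band 3 to ankyrin. Its probe set 1417337_at read 11.04 and 11.33 with IRP1 and 10.82 and 10.89 in controls of bone marrow. Spleen read 9.32 and 9.27 with IRP1 and 9.64 and 8.96 in controls, and the other organs 3.27 to 3.70. The control differences were 172-fold for bone marrow and 58.5-fold for spleen (adjusted p = 3.27e-15 and 3.58e-13). The second probe set, 1417338_at, was dim, with 5.65 and 5.51 in bone marrow controls, 4.74 and 5.31 in spleen controls and 4.51 to 5.27 in controls of the other organs. It was 1.83-fold higher in bone marrow (log2 0.87 ± 0.19, SE, adjusted p = 0.00138). In spleen it was not called (log2 0.32 ± 0.19, SE, adjusted p = 0.205).

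Rhag (chr17:40811099-40844094) encodes a gas or ammonium channel that carries the Rh antigens to the membrane. Probe set 1419014_at read 10.96 and 11.64 with IRP1 and 10.81 and 11.17 in controls of bone marrow. Spleen read 8.61 and 9.82 with IRP1 and 9.36 and 9.43 in controls. The other organs stayed near the floor, at 3.20 to 4.15. Controls were 188-fold higher in bone marrow and 62.1-fold higher in spleen (adjusted p = 1.02e-12 and 1.99e-11). For Gata1, Rhag, Epb42 1417337_at and Slc4a1 1434502_x_at the other organs lay at background, so their folds are low estimates. The order of the folds among genes is not measured.

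The differences of the brightest probe set of each gene but Ank1 kept their calls without the 3 arrays with dim hybridisation controls, which leaves 1 control array each in bone marrow and spleen, assumed to vary like the other groups. In bone marrow they were then 5.10 for Gata1, 5.75 for Klf1, 1.74 for Epor, 8.42 for Slc4a1 1416464_at, 7.46 for Epb42 1417337_at and 7.74 for Rhag on the log2 scale. In spleen they were 3.12, 3.62, 0.74, 7.03, 6.21 and 5.92 for the same probe sets.

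**Figure D2:**
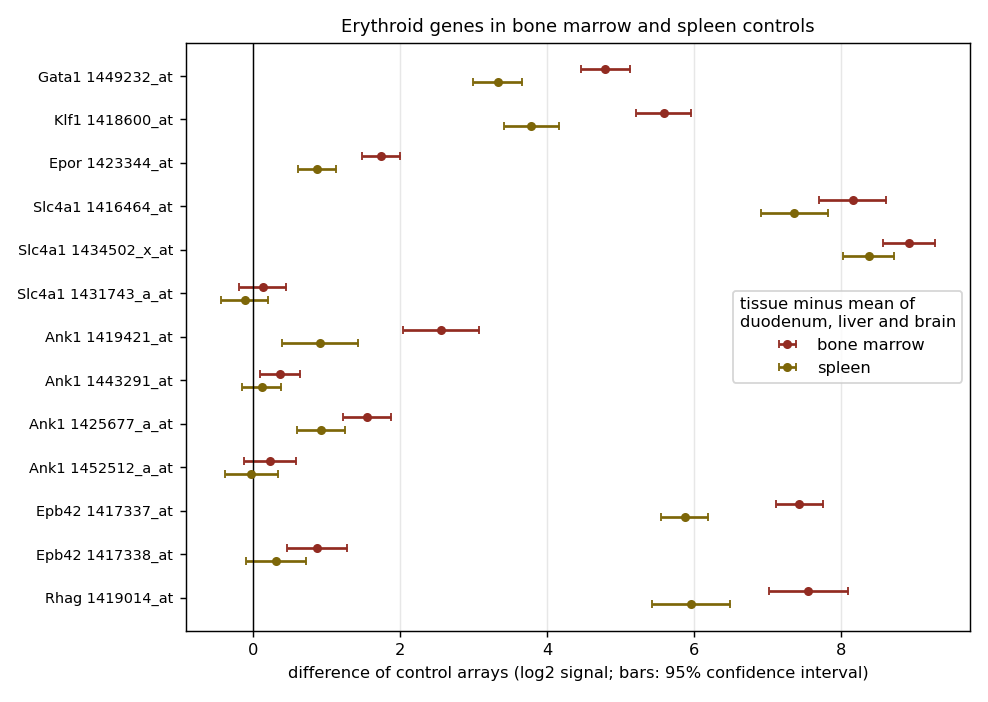
Difference of control arrays on the log2 scale between bone marrow (red) or spleen (olive) and the mean of liver, duodenum and brain, for each of the 13 probe sets. Points are model estimates and bars 95% confidence intervals. Bone marrow points lie right of spleen points for every probe set, from 0.14 to 8.92 against -0.11 to 8.37.

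Ank1 (chr8:22974836-23150501) did not keep to the blood-forming tissues. Ankyrin 1 links band 3 to the spectrin skeleton in red cells, and the gene is also known to be expressed in muscle and brain. Probe set 1419421_at read 12.20 and 12.11 with IRP1 and 11.80 and 11.87 in controls of bone marrow. Spleen read 10.03 and 10.77 with IRP1 and 10.02 and 10.36 in controls. Brain read 10.58 and 10.48 with IRP1 and 11.07 and 10.12 in controls, which overlaps spleen. Liver was at 9.53 and 9.30 with IRP1 and 8.49 and 9.35 in controls, and duodenum at 8.26 to 8.66 on all 4 arrays.

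Brain was therefore compared with duodenum and liver after the values had been seen. By this probe set Ank1 was 3.94-fold higher in brain controls than in duodenum and liver controls (log2 1.98 ± 0.26, SE, adjusted p = 6.71e-06), and 20.2% of all probe sets were called higher in that comparison. Of the 13 probe sets it was the 1 called higher, and Klf1 the 1 called lower (log2 -0.99 ± 0.19, SE, adjusted p = 0.000316), where 23.5% of all probe sets were called lower. These counts lie below both shares of all probe sets, and the comparison describes values already seen. A second Ank1 probe set, 1425677_a_at, showed no such difference in brain (log2 -0.08 ± 0.16, SE, 95% interval -0.43 to 0.27, adjusted p = 0.719). Which transcripts these probe sets read was not analysed here.

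The 4 Ank1 probe sets disagreed in bone marrow as well. Over the mean of the 3 other organs, brain included, 1419421_at was 5.91-fold higher in bone marrow and 1.89-fold higher in spleen (adjusted p = 2.05e-07 and 0.00608). The spleen call was lost without spleen control replicate 2 (adjusted p = 0.112) and without the 3 arrays with dim hybridisation controls (adjusted p = 0.094). Probe set 1425677_a_at read 6.55 and 6.47 in bone marrow controls, 5.95 and 5.81 in spleen controls and 4.76 to 5.18 in controls of the other organs. It was 2.95-fold and 1.90-fold higher (adjusted p = 3.11e-07 and 0.00011), with no overlap between groups. Probe set 1443291_at was 1.30-fold higher in bone marrow (adjusted p = 0.0268), a call lost without those 3 arrays (adjusted p = 0.174) and without any 1 of 4 control arrays (0.0553 to 0.161), and was not called in spleen (adjusted p = 0.484). Probe set 1452512_a_at lay at 3.43 to 4.54 on all 20 arrays and was called in neither tissue (adjusted p = 0.308 and 0.944).

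**Figure D3:**
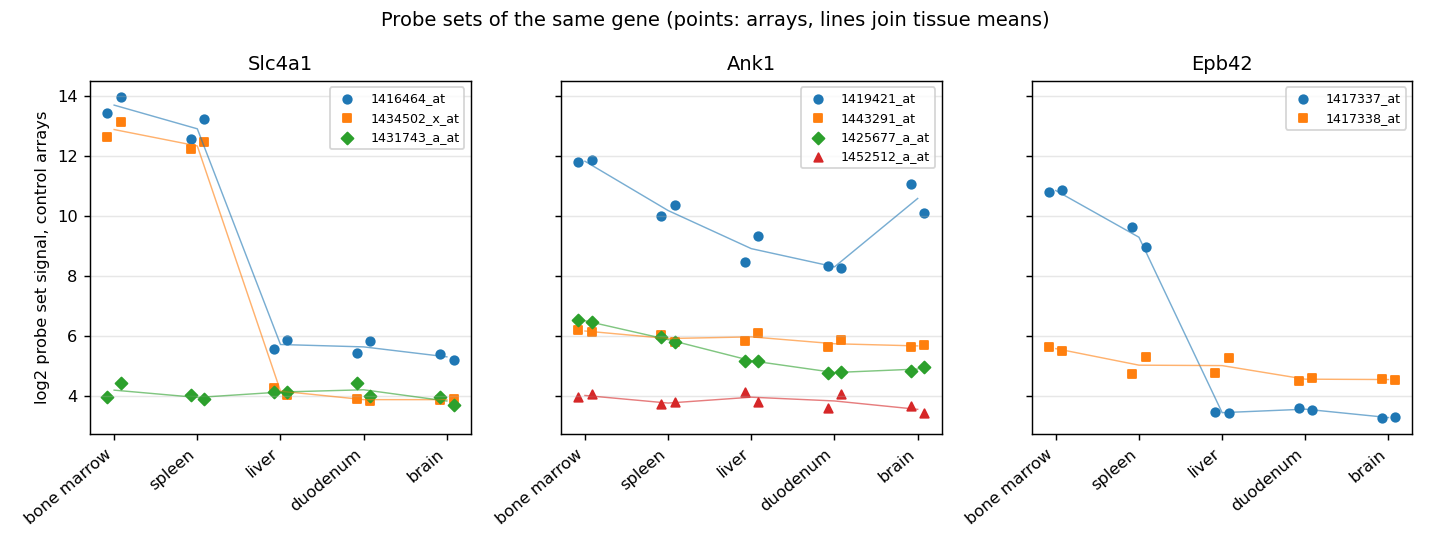
Log2 signal on the 10 control arrays for the genes with several probe sets. Points are arrays and lines join the means of 2 arrays. For Slc4a1 and Epb42 the brightest probe sets fall steeply between spleen and liver, while 1 dim probe set of each stays between 3.69 and 5.65. Ank1 1419421_at is higher in brain than in liver or duodenum.

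Bone marrow exceeded spleen for most of these genes. In controls, 8 of 13 probe sets were called higher in bone marrow than in spleen, as were 6.6% of all probe sets. At an unadjusted p under 0.05 there were 10, a threshold at which the share of all probe sets was not counted. Without the 3 arrays with dim hybridisation controls the count was again 8. The median of the 13 was 0.79 on the log2 scale, against 0.04 over all probe sets. Klf1 was 3.48-fold higher (log2 1.80 ± 0.22, SE, adjusted p = 1.5e-05). Ank1 by 1419421_at was 3.13-fold (adjusted p = 0.000862), Rhag 3.03-fold (adjusted p = 0.00143), Epb42 by 1417337_at 2.95-fold (adjusted p = 1.15e-05) and Gata1 2.75-fold higher (adjusted p = 3.7e-05). Epor was 1.82-fold higher (adjusted p = 0.000525). Without the 3 arrays the log2 differences were 2.13 for Klf1, 1.85 for Ank1 1419421_at and 1.81 for Rhag. They were 1.25 for Epb42 1417337_at, 1.98 for Gata1 and 1.01 for Epor.

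Slc4a1, at the bright end of the array, showed a smaller ratio. Probe set 1416464_at was 1.73-fold higher in bone marrow (log2 0.79 ± 0.26, SE, adjusted p = 0.0468), a call lost without spleen control replicate 1 (adjusted p = 0.346) or bone marrow control replicate 2 (0.264), and at 0.0504 to 0.0598 without most other single arrays. Probe set 1434502_x_at was 1.46-fold higher (log2 0.55 ± 0.20, SE), which missed the call (adjusted p = 0.0725). On the IRP1 arrays 9 of 13 probe sets were higher in bone marrow than in spleen, as were 8.5% of all probe sets. There the 2 bright Slc4a1 probe sets differed by 1.53 ± 0.26 and 1.19 ± 0.20 (log2, SE). Without the 3 arrays with dim hybridisation controls, 1434502_x_at was called among controls (adjusted p = 0.017), and Ank1 1425677_a_at, called at an adjusted p of 0.0281 with all arrays, was not (adjusted p = 0.262).

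Of the members, Klf1 alone was called higher in liver controls than in those of duodenum and brain. Klf1 read 7.03 and 6.84 with IRP1 and 6.80 and 6.70 in controls of liver. Duodenum read 6.02 and 5.83 with IRP1 and 5.89 and 5.91 in controls, and brain 6.04 and 5.61 with IRP1 and 5.36 and 5.30 in controls. The liver arrays lay above all others of these organs. In a comparison added after these values were seen, liver controls were 2.19-fold above duodenum and brain controls (log2 1.13 ± 0.19, SE, adjusted p = 0.000122). As 15.8% of all probe sets were called higher, 1 of 13 is no more than that share, and the p only describes a difference that had already been seen. On the IRP1 arrays the same comparison called 6 of 13 higher, where 18.7% of all probe sets were. Those were Klf1, Epor, Slc4a1 1431743_a_at, Epb42 1417338_at and 2 dim Ank1 probe sets. Alas2 was 4.79-fold higher in liver controls (adjusted p = 3.92e-05). Gata1, Slc4a1, Epb42 and Rhag were not called in liver controls (adjusted p = 0.0915 to 0.924 over their 7 probe sets).

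None of the 13 probe sets passed the test for enrichment by IRP1. In the mean of the 5 tissues 0 of 13 were called in either direction with limma, where 1.8% of all probe sets were. An unadjusted p under 0.05 was reached by 1, and the share of all probe sets that reached it was not counted. The members' median IRP1 effect was 0.06 on the log2 scale, with a range of -0.10 to 0.33. The median over all probe sets was -0.01, and the middle 95% of them lay between -0.37 and 0.28. The highest upper bound of a 95% confidence interval among the 13 was 0.53 (1.45-fold, Ank1 1419421_at), and the lowest lower bound was -0.29 (Slc4a1 1434502_x_at). These bounds hold for a mean that gives equal weight to liver, duodenum and brain, where several of these probe sets lay at background. In bone marrow alone the upper bounds were wider, reaching 1.01 for Slc4a1 1416464_at, 0.97 for Rhag and 0.95 for Ank1 1419421_at. Alas2, on the same arrays, was 4.65-fold higher with IRP1 (log2 2.22 ± 0.17, SE, adjusted p = 1.18e-06), and its IRP1 arrays exceeded the controls in 5 of 5 tissues. The 3 Tfrc probe sets were higher by 2.19, 2.88 and 1.98 on the log2 scale.

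**Figure D4:**
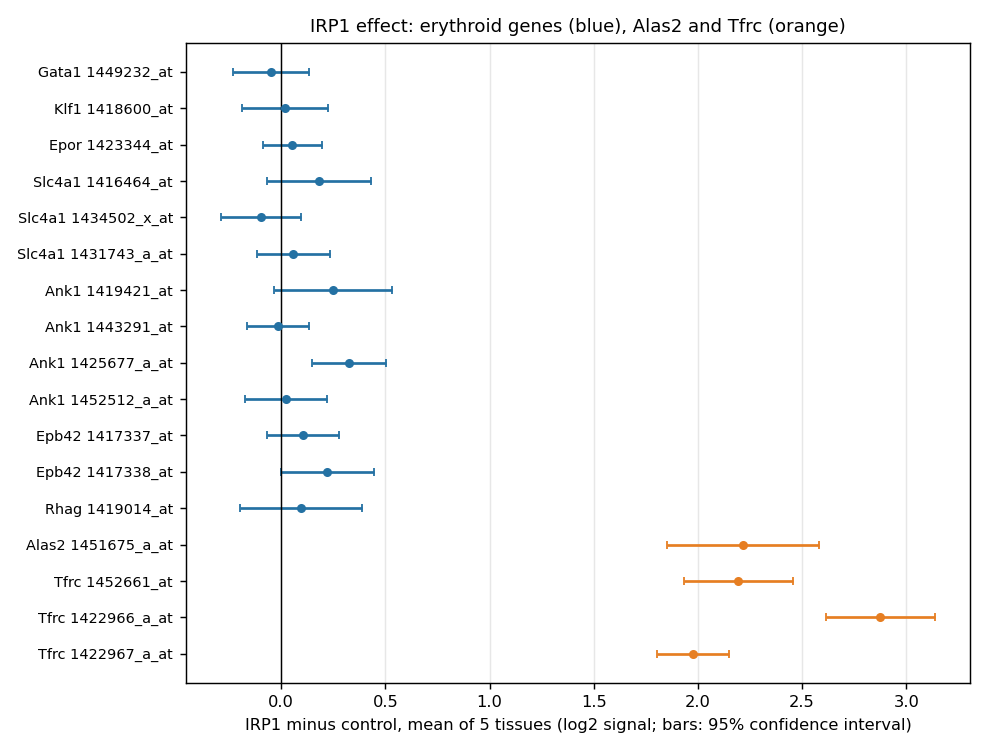
IRP1 minus control in the mean of 5 tissues on the log2 scale for the 13 erythroid probe sets (blue) and for Alas2 and Tfrc (orange). Points are model estimates and bars 95% confidence intervals. The blue points lie between -0.10 and 0.33 and the orange points between 1.98 and 2.88.

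By gene, the mean IRP1 effect was -0.05 ± 0.09 for Gata1, 0.02 ± 0.10 for Klf1 and 0.05 ± 0.07 for Epor (log2, SE, adjusted p = 0.844, 0.955 and 0.756). It was 0.18 ± 0.12 for Slc4a1 1416464_at, 0.10 ± 0.08 for Epb42 1417337_at and 0.10 ± 0.14 for Rhag (adjusted p = 0.49, 0.581 and 0.8). The intervals of Gata1, Klf1 and Epor reached from -0.23 to 0.22 at most, so a change as large as that of Alas2 lies outside them. In bone marrow alone their upper bounds were 0.66, 0.34 and 0.63, where Alas2 differed by 2.41. The nearest to a call was Ank1 1425677_a_at, at 0.33 ± 0.08 (1.25-fold, 95% interval 1.11-fold to 1.42-fold, adjusted p = 0.0597). Its IRP1 arrays lay above both controls in 3 of 5 tissues. Without spleen IRP1 replicate 1 it was called (adjusted p = 0.016), and likewise without bone marrow IRP1 replicate 2 (adjusted p = 0.0435) or brain IRP1 replicate 2 (adjusted p = 0.045). Without the 3 arrays with dim hybridisation controls the effect of 1425677_a_at was smaller, at 0.26. The brighter Ank1 probe set, 1419421_at, gave 0.25 ± 0.13 with all arrays (adjusted p = 0.383).

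Single tissues gave 0 of 13 calls each. The share of all probe sets called there was 0.131% in bone marrow, 0.102% in spleen, 0.184% in liver, 0.104% in duodenum and 0.124% in brain. At an unadjusted p under 0.05 there was 1 higher in bone marrow, 2 lower in spleen, 2 higher in liver, 0 in duodenum and 1 higher in brain. The shares above are for adjusted calls, and the share of all probe sets at the unadjusted threshold was not counted here. Of the 65 pairs of a tissue and a probe set, both IRP1 arrays lay above both controls in 22 and below both in 9, and the groups overlapped in 34. The share of all probe sets in each order was not counted here, so these counts cannot tell whether the members lean to one side.

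Gata1 in spleen had the lowest value of the members. It read 6.85 and 7.03 with IRP1, against 7.34 and 7.77 in controls (log2 -0.61 ± 0.19, SE, adjusted p = 0.337). Klf1 in spleen differed by -0.49 ± 0.22 (adjusted p = 0.498), with overlapping groups in which each IRP1 array lay below the control of its own number. Without the arrays with dim hybridisation controls, 1 array of each reaction was left in spleen and the differences were -0.49 for Gata1 and -0.69 for Klf1 (adjusted p = 0.598 and 0.577). In brain Klf1 read 6.04 and 5.61 with IRP1, against 5.36 and 5.30 in controls (log2 0.49 ± 0.22, SE, adjusted p = 0.744). The differences between these tissues did not pass the test: by limma's F-test of the tissues' effects, 0 of 13 probe sets were called, against 0.0111% of all. Gata1 had the lowest unadjusted p of that test (0.0326, adjusted 0.93).

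Of the other pairs with an unadjusted p under 0.05, 2 lay in liver and 1 in bone marrow. Ank1 1425677_a_at read 7.15 and 6.67 with IRP1, against 6.55 and 6.47 in controls of bone marrow (log2 0.40 ± 0.19, SE, adjusted p = 0.964). It read 5.76 and 5.82 with IRP1, against 5.17 and 5.18 in controls of liver (log2 0.62 ± 0.19, SE, adjusted p = 0.188). Epb42 1417338_at read 5.66 and 5.49 with IRP1, against 4.76 and 5.27 in controls (log2 0.56 ± 0.24, SE, adjusted p = 0.31). The members' median effect was 0.24 in liver, where all probe sets had -0.02. It was 0.31 in bone marrow, against 0.05 over all probe sets, and -0.04 in spleen, 0.01 in duodenum and 0.11 in brain. Without the arrays with dim hybridisation controls, 1 bone marrow control was left and most members' bone marrow effects were lower. Gata1 went from 0.26 to -0.05, Slc4a1 1416464_at from 0.45 to 0.18 and Rhag from 0.31 to 0.13. Ank1 1425677_a_at, Ank1 1443291_at and Epb42 1417338_at had higher values than with all arrays. The members' median without these arrays is not given. The IRP1 arrays of liver had a narrower spread of values (SD 1.90 and 1.95) than the liver controls (2.11 and 1.99), as had spleen IRP1 replicate 1 (2.01, against 2.16 and 2.24 in spleen controls) and brain IRP1 replicate 1 (1.98, against 2.16 and 2.11 in brain controls). In bone marrow the SD was 2.17 and 2.22 on the IRP1 arrays, against 2.05 and 2.18 in controls. The part of this in the result was not tested.

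Alas2 shows what a gene with an IRE looked like in each tissue. In bone marrow it read 14.77 and 15.19 with IRP1, against 12.42 and 12.72 in controls (5.30-fold, adjusted p = 0.0133). In spleen it read 12.89 and 14.02 with IRP1, against 11.57 and 11.90 in controls (3.30-fold, adjusted p = 0.156). In brain the ratio was 6.97-fold, in duodenum 4.23-fold and in liver 4.22-fold (adjusted p = 0.00419, 0.0548 and 0.0447). The groups did not overlap in any of the 5. Its bone marrow signal with IRP1 was close to the ceiling of the array.

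**Figure D5:**
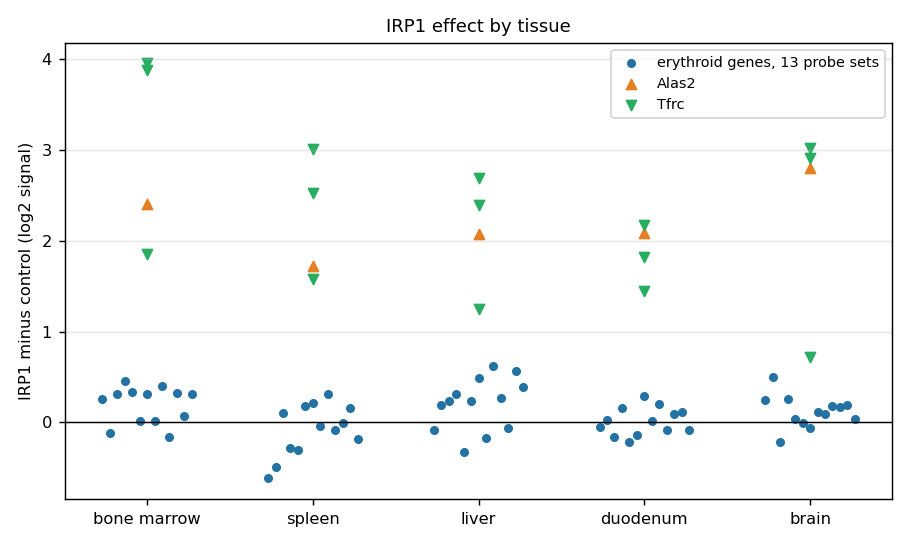
IRP1 minus control in each tissue on the log2 scale for the 13 erythroid probe sets (blue dots), Alas2 (orange triangles) and the 3 Tfrc probe sets (green triangles). Each mark is a difference of means of 2 arrays. The blue dots lie between -0.61 and 0.62 and all orange and green marks between 0.72 and 3.95.

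Most other erythroid genes were higher in the same tissues. Each gene was represented by its brightest probe set, and the 8 genes above were left out of these lists. Of all probe sets, 17.6% were called higher in bone marrow and 21.4% in spleen than in the 3 other organs. In bone marrow over spleen 6.6% were. The shares called lower in these comparisons were not counted, here or for the blood cell lists below. Of 14 transcription factors and cofactors, 12 were higher in bone marrow controls than in the mean of the 3 other organs, and none lower. In spleen controls 12 were higher and none lower. The list medians were 2.23 and 1.53 (log2). In all these lists a gene counted as higher than the mean can be lower than a single organ. Bcl11a, for example, read 9.01 in bone marrow controls and 9.66 in brain controls. The largest bone marrow differences were those of Nfe2 (5.85 ± 0.21), a factor of globin genes and platelets, the progenitor factor Myb (5.60 ± 0.25), and Tal1 (5.37 ± 0.32) and Lmo2 (4.58 ± 0.23), partners of Gata1. Between bone marrow and spleen, 9 were higher and 2 lower.

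Of 9 measured genes of Epor signalling and the related receptor Kit, of 10 listed, 5 were higher and 1 lower in bone marrow than in the mean of the other organs. In spleen 5 were higher. The largest bone marrow differences from that mean were those of the kinase gene Pim1 (2.85 ± 0.27) and the survival gene Bcl2l1 (2.04 ± 0.13). Next were Kit, the receptor of stem cell factor (1.04 ± 0.16), and Stat5a (0.76 ± 0.19), which carries Epor's signal. Kit read 8.08 in bone marrow controls and 8.10 in brain controls. Stat5a read 7.24 in bone marrow controls and 7.52 in liver controls. Cish, an inhibitor of Epor's signal, was the 1 lower in bone marrow (-0.68 ± 0.14, adjusted p = 0.000864). The list median was 0.75.

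Most other membrane and skeleton genes were higher in the blood-forming tissues too. Of 17 measured genes of 20 listed, 14 were higher and 1 lower in bone marrow than in the mean of the other organs. In spleen 12 were higher and 2 lower, and 13 were higher in bone marrow than in spleen. Ermap (7.13 ± 0.26), Cldn13 (6.68 ± 0.25), Rhd (6.55 ± 0.26) and Kel (6.16 ± 0.22), genes of red cell surface proteins, led. Bsg was the 1 lower in bone marrow, at -1.24 ± 0.24. The 2 lower in spleen were Bsg (-0.83 ± 0.24) and the spectrin gene Sptb (-0.95 ± 0.16). All 7 measured heme synthesis genes of 8 listed were higher in bone marrow and 6 in spleen, led by Alas2 (6.30 ± 0.32), Fech (3.79 ± 0.22), Alad (2.76 ± 0.18) and Ppox (2.68 ± 0.17). All 10 measured late erythroid genes of 12 listed, Fech again among them, were higher in both. Hemgn (8.36 ± 0.25), Trim10 (7.92 ± 0.23), the mitochondrial iron importer Slc25a37 (5.17 ± 0.22) and the carbonic anhydrase Car1 (5.10 ± 0.15) led.

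In the mean of the tissues, 0 of 14 transcription factors and 0 of 9 signalling genes were called for IRP1. As 1.8% of all probe sets were called, 0 in lists this short is near that share. Of 17 membrane genes 1 was lower. Of 7 heme synthesis genes 1 was higher and 1 lower, as were 1 and 1 of 10 late erythroid genes. Besides Alas2 and Tfrc, the calls were falls of Add1, an adducin of the membrane skeleton (-0.38 ± 0.09, adjusted p = 0.0485), of Alad (-0.41 ± 0.10, adjusted p = 0.0454) and of Blvrb, a reductase of biliverdin and flavins (-0.39 ± 0.09, adjusted p = 0.0407). In bone marrow these genes did not fall, at 0.13, 0.15 and 0.14. In spleen, which has 2 arrays with dim hybridisation controls, they were at -0.78, -0.73 and -0.97. None was called in either tissue alone. By comparison, 6 of the 6 measured IRE genes of 7 listed were higher, with a median of 1.60. Besides Alas2 and Tfrc these were the iron importer Slc11a2 (1.84 ± 0.14), the iron exporter Slc40a1 (1.36 ± 0.12), the hypoxia factor Epas1 (1.35 ± 0.15) and the ferritin heavy chain Fth1 (0.84 ± 0.10). In bone marrow the list medians of the IRP1 effect were 0.19 for the transcription factors, 0.19 for signalling, 0.20 for the membrane genes, 0.15 for heme synthesis and 0.21 for the late erythroid genes. In spleen the same lists had -0.21, -0.06, -0.30, -0.50 and -0.30. Of the lists of other blood cells, macrophage markers had 0.29 in bone marrow and -0.35 in spleen, and megakaryocyte markers 0.12 and -0.21. Neutrophil precursor markers had 0.22 and -0.02, and B and T cell markers 0.09 and -0.06. Mast cell and eosinophil markers had 0.19 and 0.11, so their spleen median was above zero. The difference between these tissues was not tested for the lists.

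Markers of other blood cells were also higher in bone marrow. All 9 neutrophil precursor markers were higher in bone marrow than in the 3 other organs (median 7.82, log2) and than in spleen (median 5.64), and 7 of 9 were higher in spleen than in those organs. S100a8 (9.71 ± 0.20), Ngp (9.06 ± 0.23), S100a9 (8.56 ± 0.15) and Ltf (8.26 ± 0.13), genes of granule and calcium-binding proteins, led. Megakaryocytes share Gata1, and mast cells and eosinophils use it too. All 5 measured megakaryocyte markers of 7 listed were higher in bone marrow and in spleen, and their mean log2 level was 10.26 to 10.67 on bone marrow arrays, 8.54 to 9.10 on spleen arrays and 5.88 to 6.30 on the others. They were led by Ppbp (8.31), Pf4 (4.79), Itga2b (3.89) and Gp1bb (3.42), as log2 differences of bone marrow controls. Of 8 mast cell and eosinophil markers, 4 were higher in bone marrow and 2 in spleen, with means of 6.14 to 6.54, 4.56 to 4.99 and 4.17 to 4.84. The spleen count is close to the 21.4% of all probe sets called higher there. The eosinophil genes Prg2, Epx and Siglecf were higher in bone marrow by 6.79, 4.95 and 1.97, and the mast cell protease Cpa3 by 1.53 ± 0.32. The mast cell genes Mcpt4, Tpsab1 and Cma1 were not called and read 3.94, 4.32 and 5.51 in bone marrow controls. The part of these cells in the levels of the erythroid genes was not tested. Macrophage markers ran the other way between the 2 tissues, with 7 of 7 lower in bone marrow than in spleen, and so did 6 of 8 B and T cell markers. The share of all probe sets called lower there was not counted. Against the 3 other organs, 4 of 7 macrophage markers were higher in bone marrow and 1 was lower, led by Vcam1 (2.58), Cd68 (1.81), Cd163 (1.28) and Adgre1 (1.03). Of the B and T cell markers 5 of 8 were higher, led by Ms4a1 (5.21), Cd79b (3.81), Cd79a (1.65) and Pax5 (1.16).

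Across the 10 control arrays, the gene closest to the mean profile of the members' brightest probe sets was Mfsd2b, a lipid transporter of red cells and platelets (Pearson r = 0.999, over 9329 candidate probe sets that varied by at least 2 on the log2 scale). The next were Cldn13, Rhd, Apol11b, 5430401H09Rik, Trim10, Hbb-b2, Kel, Cyfip2 and Ppbp, the last at 0.995. Ppbp is a platelet chemokine and a member of the megakaryocyte list. The 10 arrays form pairs of 5 tissues, so these values mainly reflect the contrast of bone marrow and spleen with the rest. Among the members themselves, Rhag (0.999), Gata1 and Epb42 1417337_at (0.996) were closest to their common profile, of which they are part. Ank1 1419421_at was farther from it (0.736), and Slc4a1 1431743_a_at had 0.115. None of the 10 like genes was called for IRP1 in the mean of the tissues (adjusted p = 0.383 to 0.993).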

How the data were processed

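The deposited values are log2 signals, 1 for each probe set and array. Per the series design text and the submitters' processing notes, the authors' intensities came from RMA, or from MAS5 in GCOS with quantile normalization, and which of these made the table is not stated. No filter or pseudocount was applied to these log2 values, and 64 array controls were left out. Genes were named by the platform's annotation, of which 34945 probe sets have 1 symbol. Gene positions and promoter windows come from RefSeq, GRCm38.p6.

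The 45037 probe sets on 20 arrays were fitted with limma 3.58.1 in R 4.3.3, with a mean for each of the 10 groups (10 residual and 6.14 prior degrees of freedom). Contrasts were IRP1 minus control by tissue, in the equal-weight mean of the 5 tissues and as an F-test between tissues, and tissue differences among controls. P-values are two-sided and Benjamini-Hochberg adjusted within each contrast. The fit was tested on simulated data for IRP1 minus control in bone marrow, with 45037 probe sets. A log2 change of 2 was called for 50 of 50 changed probe sets, a change of 1 for 29 of 50 and a change of 0.5 for 1 of 50. Matplotlib 3.10.9 under Python 3.11.15 drew the figures.

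All probe sets of the members are named. From the erythroid, IRE and blood cell lists the genes called for IRP1 in the mean and the 4 with the largest bone marrow difference are named, with Alas2 and Tfrc for scale and the 10 genes of most similar profile. Lists of solid organ cells are given by their level only. Genes outside this rule (Bcl11a, Cish, Bsg, Sptb, Mcpt4, Tpsab1 and Cma1) were named after their values were seen. The members and lists were chosen with earlier results of these data known, and the liver and brain comparisons were added after the values were seen. Alternatives were quantile normalization, median centring, a floor at log2 5, a filter on dim probe sets, array weights, an intensity trend, a replicate block, IRP1 arrays in place of controls, and leaving out arrays.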

Additional observations from a re-analysis of the deposited data

How the results depend on the processing

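In the mean of the 5 tissues the count of the 13 erythroid probe sets called for IRP1 was 0 and became 1 with a random replicate block (Ank1 1425677_a_at, adjusted p = 0.0413), and ranged from 0 to 1 when single arrays were left out. The replicate numbers were not treated as pairs, because not every tissue's arrays moved together by number: the correlation of same-numbered deviations was 0.272 in duodenum, 0.533 in spleen and 0.119 in brain, but -0.074 in liver and -0.039 in bone marrow. With a fixed block the count stayed at 0, and the random block left the counts of the tissue comparisons at 11, 9, 8 and 1. Leaving out single arrays gave 0 in single tissues and in the F-test, 10 to 11 higher in bone marrow, 8 to 9 in spleen, 6 to 9 in bone marrow over spleen and 1 to 2 in liver, with 2 without liver control replicate 1. In liver the count was 6 with IRP1 arrays in place of controls and 4 with the mean of both reactions, and Epor differed by 0.42 with IRP1 arrays (adjusted p = 0.0158), against -0.001 in controls. The cause was not tested. The call of Slc4a1 1416464_at between bone marrow and spleen was lost with a floor (adjusted p = 0.112), array weights (0.0673) and an intensity trend (0.0514), and that of Ank1 1443291_at in bone marrow with array weights (0.0721) and the trend (0.0508). Having 2 arrays a group limits the precision of every value.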
